A study of Mus musculus with 12 samples.

Results

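The 8 long noncoding RNA genes described here are Malat1, Neat1, Meg3, Miat, Snhg11, Rian, Mirg and Bc1. They were taken by name from the 55471 genes of a count table, through the symbol paired with each Ensembl ID, and not for any measured value. All 8 were among the 19492 genes with enough reads to be tested. The tissue was ventral CA1 (vCA1), the output field of the ventral hippocampus, in acute horizontal slices of 400 µm from wild-type male C57BL/6J mice aged 5 to 7 weeks. STET slices were strongly tetanized (3 trains, each of 100 pulses, at a rate of 100 Hz), a protocol for late long-term potentiation, the lasting strengthening of synapses. STET_S100 slices received in addition 100 Hz stimulation of the basolateral amygdala, and STET_S200 slices received in addition amygdala stimulation that the labels give as 200 Hz, although the bracketed pulse rate in the same label is 100 Hz. Control slices lay under the same electrodes and received basal stimulation only. Slices were frozen 30 min after stimulation, 1 mm2 around the electrodes was dissected, and 6 slices were pooled for each of the 12 libraries, 3 in each group. Each mouse gave 4 slices, 1 to each group, so the groups share mice, and the p-values measure the spread between pooled samples.

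Long noncoding RNAs act without being translated, and many stay in the nucleus. Malat1 sits in nuclear speckles, the stores of splicing factors, and Neat1 is the scaffold of paraspeckles, nuclear bodies that hold back proteins and RNAs. Miat (also called Gomafu) is a neuronal nuclear RNA that binds splicing proteins. Meg3, Rian and Mirg are read from the maternal copy of the imprinted Dlk1-Dio3 region, and Rian and Mirg carry small nucleolar RNAs and microRNAs. Snhg11 is a small nucleolar RNA host gene that is abundant in neurons. Bc1 is a short RNA made by RNA polymerase III, carried into dendrites, where it restrains translation.

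Because the libraries were made from poly(A) RNA, the A-rich stretches and ends of these RNAs are shown first, from the GENCODE M21 transcripts (GRCm38). Bc1 has no added poly(A) tail of the messenger RNA kind, but its 168 bases hold 70 A, and the capitals mark its longest run of A, 23 bases from base 77 to base 99.
Bc1-201: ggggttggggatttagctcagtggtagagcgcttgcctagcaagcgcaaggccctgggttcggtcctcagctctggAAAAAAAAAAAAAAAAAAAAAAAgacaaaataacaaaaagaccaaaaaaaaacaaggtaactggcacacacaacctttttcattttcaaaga

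Neat1 has a short polyadenylated form and a long form that is not polyadenylated but is needed to build paraspeckles. The last 60 bases of Neat1-202 (bases 2945 to 3004) hold 1 AATAAA, the poly(A) signal, in capitals. The last 60 bases of Neat1-201 (bases 20712 to 20771) hold none, and those of Malat1-201 (bases 6924 to 6983) hold 1.
Neat1-202 end: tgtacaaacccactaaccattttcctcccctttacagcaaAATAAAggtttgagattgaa
Neat1-201 end: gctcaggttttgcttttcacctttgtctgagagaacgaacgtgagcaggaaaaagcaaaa
Malat1-201 end: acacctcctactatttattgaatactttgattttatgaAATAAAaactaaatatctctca

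Miat is known for tandem copies of TACTAAC, the letters of the intron branch point, which the splicing factor Sf1 binds. Miat-205 (9163 bases) held 6 copies, the first starting at base 4941 and the last at base 5623, and the window of bases 5580 to 5639 shows 3 of them in capitals. The motif, searched on the transcript strand, was in 3.60% of 141767 annotated transcripts. Those with at least as many copies as Miat-205 numbered 5, with Miat-205 itself among them and other Miat transcripts not set apart. Among the longest transcripts of the other members, Neat1-201 held 1 copy and the others held 0.
Miat-205 window: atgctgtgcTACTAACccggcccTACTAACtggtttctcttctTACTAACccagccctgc

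None of the 8 RNAs passed the test in any comparison with Control, and the differences that stood out most were those of Bc1. Bc1 averaged 1736 ± 301 CPM in stimulated libraries (SD, n = 9) and 2238 ± 145 CPM in Control libraries (SD, n = 3), and every stimulated library lay below every Control library. Meg3, Miat and Snhg11 differed by up to 1.67-fold between single libraries but moved together, so that the ratio of Snhg11 to Meg3 varied by only 1.13-fold. Rian, from the same imprinted region as Meg3, was the steadiest, with a coefficient of variation of 4.37% over the 12 libraries.

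Levels are CPM, the counts of a gene per M counts of the TMM-scaled library. Library totals were 36.3 to 52.8 M counts, and the 8 RNAs together took 0.531 to 0.831% of them. CA1 markers were present in all libraries, with Wfs1 between 76.0 and 99.2 CPM. The summed level of 6 choroid plexus markers varied widely, from 278 to 2420 CPM in STET, 20.0 to 3037 CPM in STET_S100, 6.86 to 51.3 CPM in STET_S200 and 207 to 1284 CPM in Control libraries, with Kcnj13 at 0 in 1 library. Fabp4, an adipocyte gene, was above 1 CPM in 5 libraries (STET replicate 3, STET_S100 replicate 1, STET_S200 replicates 2 and 3 and Control replicate 3). Alb, of liver, was at 0 in 3 libraries and Umod, of kidney, in 8. The highest level was 8.46 CPM for Fabp4, 8.47 CPM for Alb and 0.718 CPM for Umod. In pooled tissue, fewer cells of a type and less RNA per cell cannot be told apart.

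Per kilobase of annotated exon, Bc1 was the highest at 11080 ± 2073 CPM per kb (SD, n = 12, here and for the next values), followed by Malat1 at 166 ± 29.9, Meg3 at 127 ± 16.6 and Snhg11 at 100.4 ± 14.3 CPM per kb. Rian followed at 33.4 ± 1.46, Miat at 27.7 ± 4.04, Mirg at 1.87 ± 0.221 and Neat1 at 1.58 ± 0.289 CPM per kb. The ranges of neighbours overlapped for Malat1 and Meg3, Meg3 and Snhg11, Rian and Miat, and Mirg and Neat1. Within libraries, the CPM ratio was 0.420 to 0.771 for Malat1 to Meg3 and 0.345 to 0.389 for Snhg11 to Meg3. With exon lengths of 6983 bases (Malat1), 18089 (Meg3) and 8521 (Snhg11), Malat1 lay above Meg3 and Meg3 above Snhg11 in each library. Rian and Miat, and Mirg and Neat1, were not ordered beyond their spread. The exon length of Neat1, 20771 bases, is that of its long form, which is not polyadenylated, while the libraries were made from poly(A) RNA. Taken over the 3004 bases of Neat1-202 its level per kb would be much higher, so its last place is not settled. The exon length of Bc1, 168 bases, is close to the read length of 150 bp, so its per-length level is approximate.

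**Figure D1:**
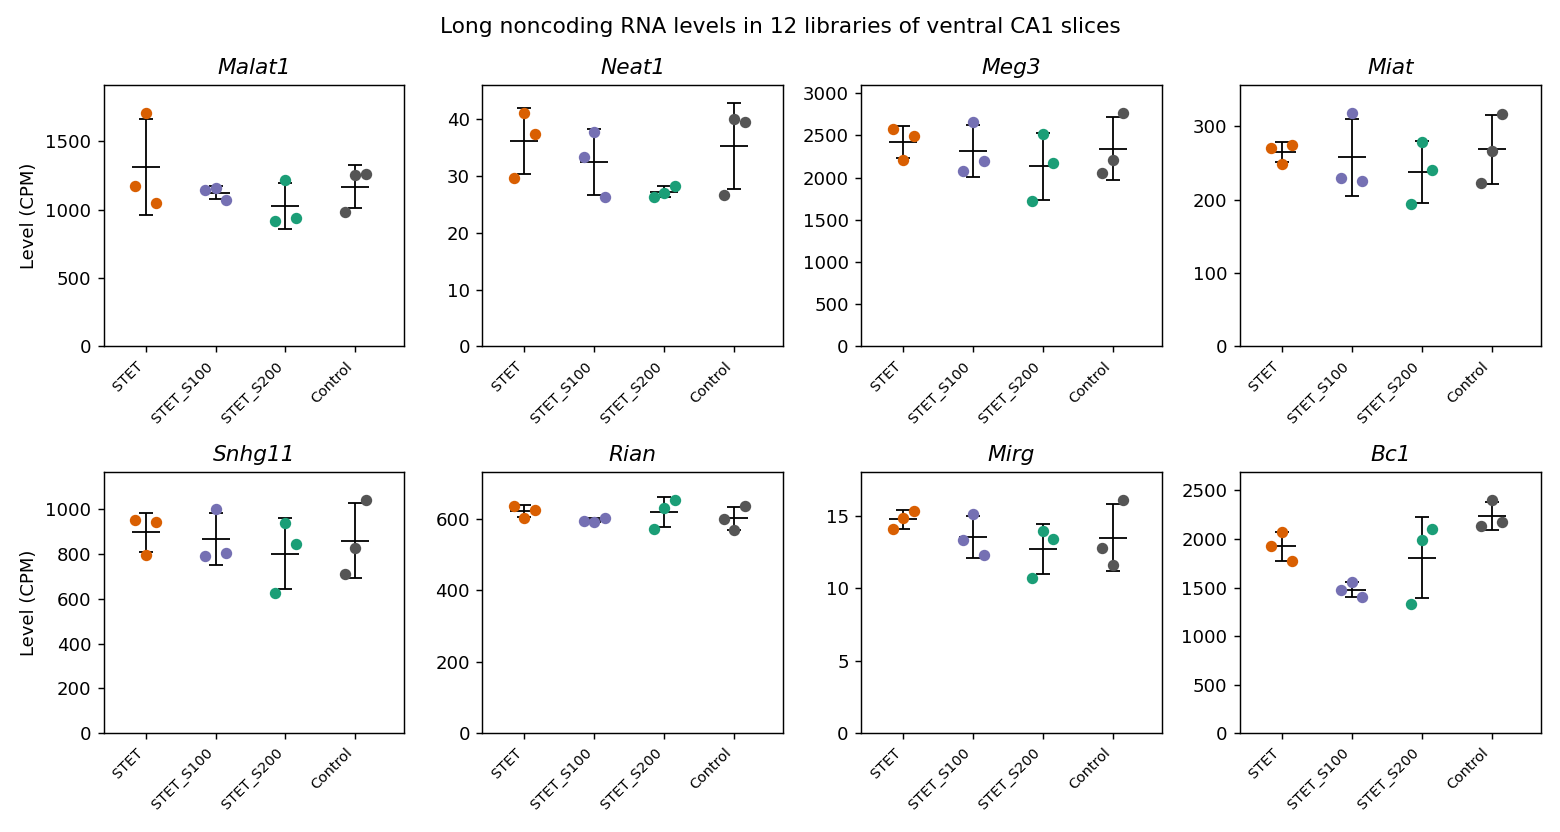
Level of each RNA (CPM, vertical axes from 0) in the STET, STET_S100, STET_S200 and Control libraries. Points are libraries, horizontal marks are group means and bars are SD (n = 3). Each stimulated group overlaps Control in every panel but that of Bc1, where the 3 Control libraries lie above all stimulated ones.

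Malat1 (chromosome 19, ENSMUSG00000092341) had 1174, 1708 and 1047 CPM in STET, 1145, 1158 and 1068 CPM in STET_S100, 919, 1218 and 941 CPM in STET_S200, and 986, 1251 and 1264 CPM in Control libraries. STET replicate 2 was the highest of all, the STET_S100 libraries lay close together, and each group overlapped Control. Its log2 difference from Control was 0.17 ± 0.196 (SE) in STET, -0.05 ± 0.196 in STET_S100 and -0.19 ± 0.196 in STET_S200 (adjusted p = 1, 0.986 and 0.916, edgeR's quasi-likelihood test with Benjamini-Hochberg adjustment over all genes tested). The 95% interval in STET, from -17.8% to 53.2%, leaves room for a sizeable difference in either direction. Without STET replicate 2 the STET difference was -0.07.

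Neat1 (chromosome 19, ENSMUSG00000092274) had 29.7, 41.1 and 37.4 CPM in STET, 33.4, 37.7 and 26.3 CPM in STET_S100, 26.3, 27.1 and 28.2 CPM in STET_S200, and 26.6, 40.0 and 39.4 CPM in Control libraries. The STET_S200 libraries were uniformly low, below all STET libraries, while Control replicate 1, at 26.6 CPM, lay within their range. The log2 difference of STET_S200 was -0.37 ± 0.193 from Control (adjusted p = 0.839) and -0.41 ± 0.192 from STET (adjusted p = 0.938), neither of which passed edgeR's quasi-likelihood test. STET and STET_S100 differed from Control by 0.04 ± 0.190 and -0.12 ± 0.191 (adjusted p = 1 and 0.957, same test).

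The choroid plexus markers summed to 6.86 to 51.3 CPM in STET_S200 libraries, below all STET and Control libraries, and 1 STET_S100 library lay within that range. Over the 12 libraries Neat1 followed the choroid plexus markers with a Pearson r of 0.790 and a Spearman rho of 0.748, and the interneuron markers with an r of -0.752. The single interneuron markers had an r with Neat1 of -0.641 (Gad2), -0.579 (Sst), -0.535 (Slc32a1), -0.507 (Gad1), -0.261 (Vip) and 0.09 (Pvalb). The 6 interneuron markers summed to 830 to 988 CPM in stimulated and 847 to 922 CPM in Control libraries. These correlations are descriptions over libraries that share mice and depth. With the choroid plexus score as a covariate in the fit, the STET_S200 difference of Neat1 from Control was -0.09 and that from STET was -0.06. Since every STET_S200 library was low in these markers, this fit cannot separate the group from the choroid plexus content. The same limit holds for every other STET_S200 value from the covariate fit, and the part of choroid plexus RNA was not tested.

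The proteins of the nuclear bodies showed small differences. Of 20 paraspeckle proteins, 12 were higher and 8 lower in the stimulated mean than in Control, with a median log2 difference of 0.01, and none passed the test. Sfpq, an essential paraspeckle protein, averaged 163 CPM in stimulated and 169 CPM in Control libraries, and Taf15, an RNA-binding protein, averaged 74.4 CPM in stimulated and 70.8 CPM in Control libraries. Of 20 nuclear speckle proteins, 12 were higher and 8 lower, with a median of 0.02 and none past the test. Srsf5, a splicing factor, had the smallest p of that list, at 324 CPM in stimulated and 304 CPM in Control libraries (log2 difference 0.09 ± 0.0321, adjusted p = 0.845, edgeR). The median over all genes tested was 0.00 in the same comparison.

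Miat (chromosome 5, ENSMUSG00000097767) had 270, 249 and 275 CPM in STET, 229, 318 and 225 CPM in STET_S100, 194, 278 and 241 CPM in STET_S200, and 223, 266 and 316 CPM in Control libraries. STET_S200 replicate 1 was the lowest and STET_S100 replicate 2 the highest, and all groups overlapped. The log2 difference from Control was -0.02 ± 0.187 in STET, -0.06 ± 0.187 in STET_S100 and -0.17 ± 0.188 in STET_S200 (adjusted p = 1, 0.982 and 0.919, edgeR's quasi-likelihood test). An antisense gene over an exon of Miat, Gm26953, was counted at 4.04 to 7.47 CPM and followed Miat with an r of 0.818. The sources used here do not give whether reads were counted by strand, so the antisense reads cannot be told apart from those of Miat.

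A list of 13 splicing proteins held Sf1 and other proteins linked to Miat, together with general splicing regulators of neurons. Of these, 4 were higher and 9 lower in the stimulated mean than in Control, none past the test. Nova2, a neuronal splicing regulator, averaged 151 CPM in stimulated and 160 CPM in Control libraries (log2 difference -0.08 ± 0.0377, adjusted p = 0.895, edgeR). Rbfox2, another splicing regulator, averaged 315 CPM in stimulated and 324 CPM in Control libraries.

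Meg3 (chromosome 12, ENSMUSG00000021268) had 2575, 2214 and 2490 CPM in STET, 2084, 2661 and 2203 CPM in STET_S100, 1719, 2516 and 2169 CPM in STET_S200, and 2059, 2208 and 2767 CPM in Control libraries. The extremes, STET_S200 replicate 1 and Control replicate 3, stood in groups that overlapped each other. The log2 difference from Control was 0.05 ± 0.167 in STET, -0.02 ± 0.167 in STET_S100 and -0.14 ± 0.167 in STET_S200 (adjusted p = 1, 0.996 and 0.934, edgeR's quasi-likelihood test).

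Rian (chromosome 12, ENSMUSG00000097451), host of box C/D small nucleolar RNAs, had 635, 603 and 625 CPM in STET, 594, 591 and 602 CPM in STET_S100, 571, 629 and 653 CPM in STET_S200, and 599, 568 and 635 CPM in Control libraries. All 12 values lay within 1.15-fold of each other. The log2 difference from Control was 0.05 ± 0.0494 in STET, -0.01 ± 0.0494 in STET_S100 and 0.04 ± 0.0494 in STET_S200 (adjusted p = 1, 0.987 and 0.930, edgeR's quasi-likelihood test). Its 95% intervals were the narrowest of the 8, from -3.80% to 11.2% in STET, -7.76% to 6.59% in STET_S100 and -4.34% to 10.5% in STET_S200.

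Mirg (chromosome 12, ENSMUSG00000097391), host of a large microRNA cluster, had 14.1, 14.8 and 15.4 CPM in STET, 13.3, 15.1 and 12.3 CPM in STET_S100, 10.7, 13.97 and 13.4 CPM in STET_S200, and 12.8, 11.6 and 16.1 CPM in Control libraries. STET lay above STET_S200 without overlap, and every group overlapped Control. The log2 difference from Control was 0.13 ± 0.121 in STET, 0.01 ± 0.122 in STET_S100 and -0.09 ± 0.123 in STET_S200 (adjusted p = 1, 1 and 0.941, edgeR's quasi-likelihood test).

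RefSeq (GRCm38.p6) placed 14 microRNA hairpins with 26 mature forms inside Mirg. Those known from neurons include miR-134, which in rat hippocampal neurons restrains translation in dendritic spines, miR-382 and miR-485. Their mature forms are shown with the seed, bases 2 to 8, in capitals, and the 3 seeds differ.
mmu-miR-134-5p: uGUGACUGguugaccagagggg
mmu-miR-382-5p: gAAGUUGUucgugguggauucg
mmu-miR-485-3p: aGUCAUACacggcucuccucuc

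The genes Mir134, Mir382 and Mir485 had 0 counts in all 12 libraries, and poly(A) libraries do not measure mature microRNAs. These genes lie over exons of Mirg on the same strand. A read there overlaps Mirg as well, so their counts depend on how such reads were assigned and do not measure them. Low numbers of reads were assigned to other small RNA genes inside the members, where reads of the host RNA cannot be told apart from theirs. Gm25129, a small nucleolar RNA gene in an intron of Snhg11, averaged 88.4 reads per library, and Gm24564, one in an intron of Rian, averaged 26.9. Mir1188 and Mir341, in introns of Rian, averaged 21.4 and 11.7 reads, and Mir3072, over an exon of Mirg, averaged 10.6. Gm37376, annotated on the strand opposite to Malat1, averaged 134 reads.

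The other genes of the Dlk1-Dio3 region and its surroundings numbered 10, of which 4 were higher and 6 lower in the stimulated mean than in Control, with none past the test. Dlk1, the paternally expressed gene of the region, averaged 40.0 CPM in stimulated and 45.7 CPM in Control libraries (log2 difference -0.19 ± 0.160, adjusted p = 0.964, edgeR). Dync1h1, the heavy chain of cytoplasmic dynein, averaged 770 CPM in stimulated and 824 CPM in Control libraries (log2 difference -0.10 ± 0.0363, adjusted p = 0.845, edgeR).

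Snhg11 (chromosome 2, ENSMUSG00000044349), listed as protein coding in GENCODE M21, had 950, 796 and 942 CPM in STET, 793, 998 and 806 CPM in STET_S100, 624, 936 and 845 CPM in STET_S200, and 710, 825 and 1042 CPM in Control libraries. As for Meg3, STET_S200 replicate 1 was the lowest and Control replicate 3 the highest, and all groups overlapped. The log2 difference from Control was 0.06 ± 0.190 in STET, 0.01 ± 0.190 in STET_S100 and -0.10 ± 0.190 in STET_S200 (adjusted p = 1, 1 and 0.962, edgeR's quasi-likelihood test). Of 19 other small nucleolar RNA host genes 15 were tested, 9 higher and 6 lower in the stimulated mean than in Control, none past the test. Snhg12 averaged 15.1 CPM in stimulated and 14.1 CPM in Control libraries, and Snhg14, the host of neuronal small nucleolar RNAs in another imprinted region, averaged 131 CPM in stimulated and 136 CPM in Control libraries.

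**Figure D2:**
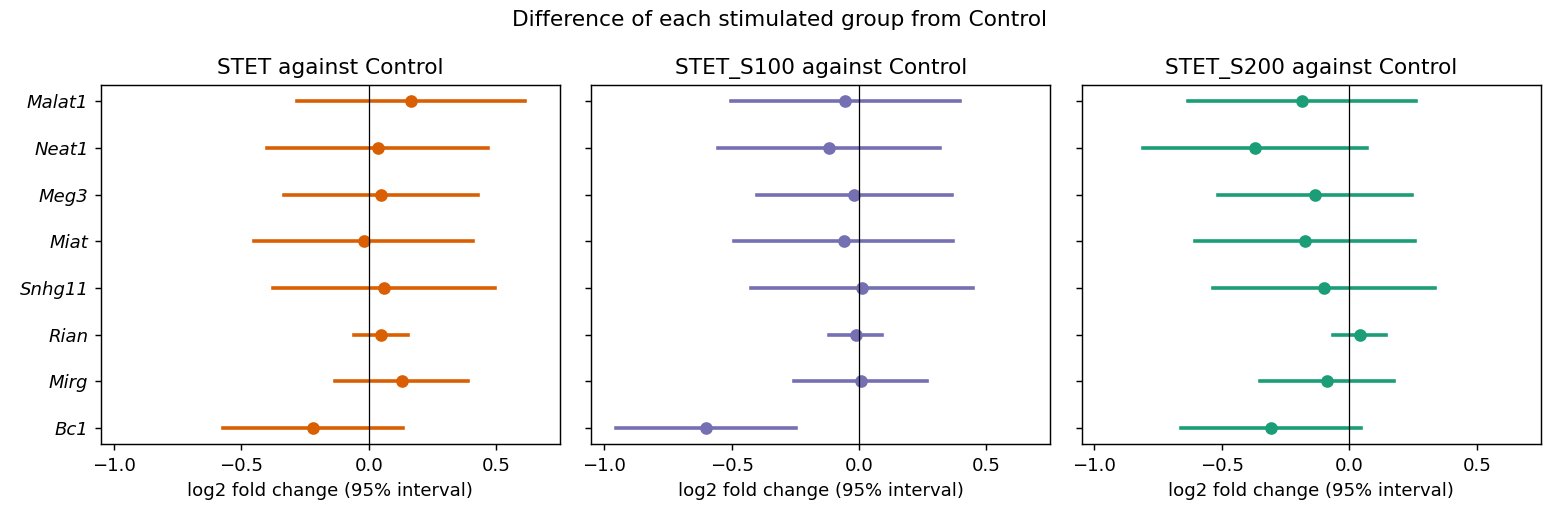
Log2 fold change of each RNA in STET, STET_S100 and STET_S200 against Control (points) with the 95% interval (lines), from 1 edgeR fit of all libraries. The interval of Bc1 in STET_S100 lies below 0, and all other intervals cross 0.

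Meg3, Miat and Snhg11, on 3 different chromosomes, varied together. Over the 12 libraries Meg3 and Snhg11 had a Pearson r of 0.980 (Spearman rho 0.930), Meg3 and Miat 0.948 (rho 0.944), and Miat and Snhg11 0.944 (rho 0.916). With each group's mean removed, r was 0.984, 0.950 and 0.954 for these pairs. Without the 2 libraries farthest from the median of the first RNA of each pair, r was 0.953, 0.897 and 0.907, so the relation did not rest on those libraries. Across the 11971 genes compared, the r with Meg3 had a median of -0.06 and a 95th percentile of 0.619.

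The ratio of Snhg11 to Meg3 lay between 0.345 and 0.389 and that of Miat to Meg3 between 0.102 and 0.120 in all 12 libraries. The neighbours of Meg3 on chromosome 12 followed it less closely, Mirg with an r of 0.836 and Rian with an r of 0.551, and the Rian to Meg3 ratio spanned 0.222 to 0.332. Without the 2 libraries farthest in Meg3, r was 0.629 for Mirg and 0.267 for Rian. Malat1 and Neat1, which lie side by side on chromosome 19, had an r of 0.674, and without the 2 libraries farthest in Malat1 an r of 0.532. Bc1 had an r of 0.293 to 0.423 with the others, and with each group's mean removed an r of 0.309 (Neat1) to 0.545 (Snhg11), among them 0.526 with Miat and 0.525 with Meg3. Without the 2 libraries farthest in the other RNA, the r of Bc1 was -0.14 with Meg3 and -0.185 with Snhg11. In the same check it was 0.111 with Neat1, 0.132 with Malat1, 0.329 with Mirg, 0.460 with Miat and 0.686 with Rian. The relation of Bc1 to Meg3 and Snhg11 thus rested on those libraries. These correlations share mice, depth and tissue composition and are descriptions, with 28 pairs compared.

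**Figure D3:**
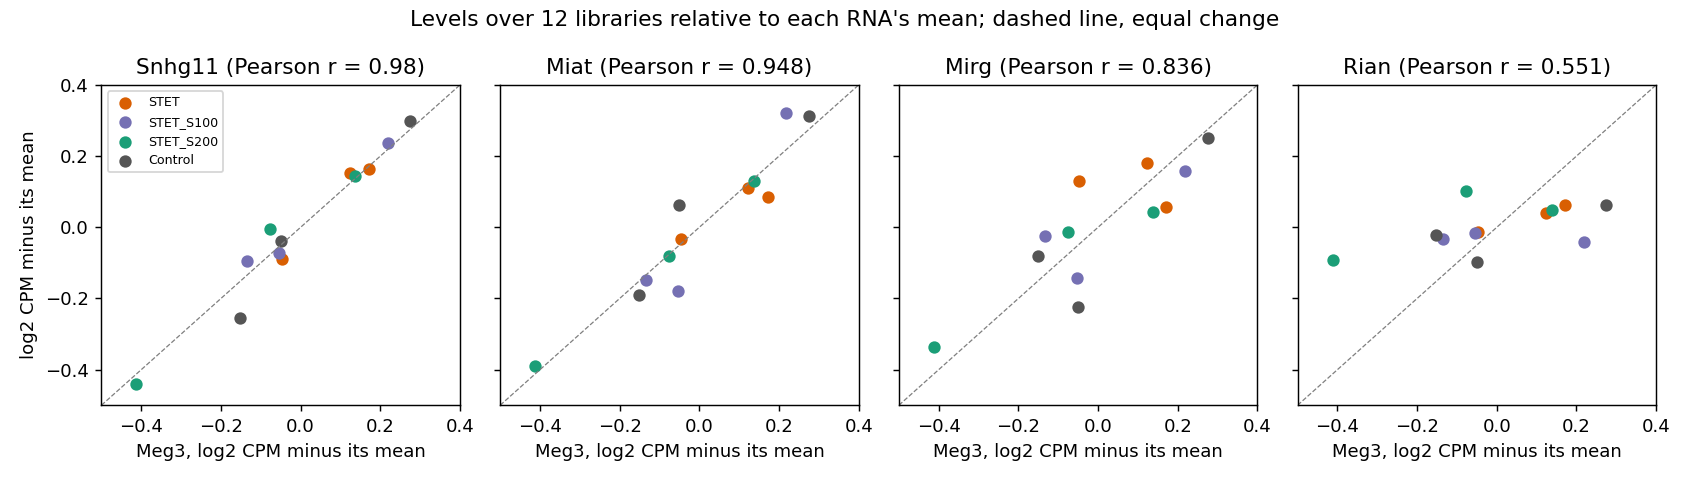
Snhg11, Miat, Mirg and Rian (vertical axes) against Meg3 (horizontal axes) in the 12 libraries, as log2 CPM minus the 12-library mean of each RNA. Snhg11 and Miat lie along the dashed line of equal change (r = 0.980 and 0.948), and Rian stays nearly flat.

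Summed marker levels moved with these RNAs. The 4 CA3 markers, which summed to 334 to 418 CPM, had an r of -0.745 with Meg3, -0.749 with Snhg11 and -0.672 with Miat. Nptx1, a neuronal pentraxin that is also known to change with neuronal activity, made up 81.0 to 86.1% of that sum, so the sum is not a measure of CA3 tissue alone. Taken singly, the r with Meg3 was -0.696 for Nptx1, -0.694 for Cpne4, -0.432 for Bok and -0.08 for Iyd. The ranges of the sum were 334 to 372 CPM in STET, 380 to 406 CPM in STET_S100, 364 to 418 CPM in STET_S200 and 338 to 387 CPM in Control libraries. The 37 mitochondrially encoded genes had an r of -0.530 with Meg3. With the endothelial markers r was 0.597 for Meg3, 0.661 for Snhg11 and 0.591 for Miat. In the same order it was -0.519, -0.570 and -0.475 with the astrocyte markers and -0.471, -0.471 and -0.645 with the interneuron markers. With the oligodendrocyte markers it was -0.07, -0.07 and -0.09. Single markers had an r with Meg3 of 0.196 (Cldn5) to 0.636 (Flt1), -0.500 (Gfap) to -0.415 (Gja1) and -0.534 (Gad2) to 0.03 (Pvalb). Rian had an r of 0.736 with the CA1 markers and -0.746 with the dentate granule markers. The single CA1 markers had an r with Rian of 0.808 (Mpped1), 0.552 (Fibcd1), 0.525 (Dcn), 0.487 (Pou3f1) and 0.133 (Wfs1). The CA1 markers, 5 genes, summed to 942 to 1164 CPM in stimulated and 964 to 1114 CPM in Control libraries, and the 4 dentate granule markers summed to 168 to 254 CPM in stimulated and 178 to 224 CPM in Control libraries. Calb1 made up 72.0 to 89.1% of the dentate sum and had an r of -0.506 with Rian, and Prox1, the defining transcription factor of these cells, had an r of -0.720. The part of composition in these patterns was not tested.

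Of the 11971 genes with a mean log2 CPM of at least 2, those most like Meg3 were Naa40 (r = 0.938) and Hars2 (r = 0.937). Those most like Snhg11 were Fam193b (r = 0.944) and Apbb3 (r = 0.940), and those most like Miat were Apbb3 (r = 0.935) and Dock6 (r = 0.933). Rpn1, a subunit of the oligosaccharyltransferase and named after its values were seen, was the gene most opposite to all of Meg3, Snhg11 and Miat, with an r of -0.941, -0.961 and -0.972. Rian was most like Mtif3 (r = 0.934) and Dus2 (r = 0.929), and Mirg most like Tbce (r = 0.957) and Clasrp (r = 0.929). Malat1 was most like Myt1 (r = 0.873) and Micu2 (r = 0.857), and Neat1 most like Col11a2 (r = 0.946) and B4galt1 (r = 0.941). All of these are over 12 libraries, and the highest of 11971 values is high by selection.

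The promoters of the RNAs that varied together are shown for comparison, from RefSeq (GRCm38.p6), 250 bases before to 50 bases after the annotated start. RefSeq entries were found for 7 of the 8 members. The letters searched on both strands were TGACGTCA, the cAMP response element, its shorter site TGACG, which lies within it, and TGANTCA, the AP-1 element. The first window of Meg3 (chr12:109540746-109541045, plus strand) held 1 TGACGTCA, in capitals, a sequence found in 1.79% of 32851 promoters. The windows of Miat (chr5:112228899-112229198, minus strand) and Snhg11 (chr2:158375463-158375762, plus strand) held none of the 3.
Meg3 promoter: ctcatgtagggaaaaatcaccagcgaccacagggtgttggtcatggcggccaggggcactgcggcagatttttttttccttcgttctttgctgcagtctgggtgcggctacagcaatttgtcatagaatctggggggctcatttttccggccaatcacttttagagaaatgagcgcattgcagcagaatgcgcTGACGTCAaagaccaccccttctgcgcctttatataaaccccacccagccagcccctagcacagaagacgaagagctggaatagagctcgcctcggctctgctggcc
Miat promoter: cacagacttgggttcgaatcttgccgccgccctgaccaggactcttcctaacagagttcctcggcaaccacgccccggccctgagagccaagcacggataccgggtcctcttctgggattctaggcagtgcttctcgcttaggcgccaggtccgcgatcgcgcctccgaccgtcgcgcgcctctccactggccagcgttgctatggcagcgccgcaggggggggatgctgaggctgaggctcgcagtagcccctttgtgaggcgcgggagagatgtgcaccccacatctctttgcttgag
Snhg11 promoter: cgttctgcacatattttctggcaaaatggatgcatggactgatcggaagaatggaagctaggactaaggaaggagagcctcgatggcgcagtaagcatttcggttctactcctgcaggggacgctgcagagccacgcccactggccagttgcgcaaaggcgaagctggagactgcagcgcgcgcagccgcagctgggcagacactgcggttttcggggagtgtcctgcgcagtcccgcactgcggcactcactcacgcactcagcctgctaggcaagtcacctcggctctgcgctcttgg

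The Malat1 window held 3 copies of TGACG, a sequence found in 20.8% of promoters, and no window of a member held TGANTCA, which 7.81% of promoters hold. A match says only that the letters are present.

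Bc1 (chromosome 7, ENSMUSG00000115783) had 1932, 2067 and 1769 CPM in STET, 1469, 1557 and 1407 CPM in STET_S100, 1329, 1994 and 2098 CPM in STET_S200, and 2136, 2404 and 2175 CPM in Control libraries. The 3 STET_S100 libraries were close together and low, whereas STET_S200 was split, with replicate 1 the lowest of all 12 and replicates 2 and 3 just under Control. Each stimulated group lay below Control without overlap. The share of all genes tested that did so was 4.20% in STET, 4.93% in STET_S100 and 5.28% in STET_S200, and 0.441% (86 genes) lay below Control in all 9 stimulated libraries. Bc1 was the only one of the 8 without overlap in any of these comparisons. No member lay above Control without overlap, which 4.69% of genes did in STET, 5.19% in STET_S100, 5.73% in STET_S200 and 0.549% in all stimulated libraries.

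The log2 difference of Bc1 from Control was -0.22 ± 0.154 in STET (adjusted p = 1), -0.60 ± 0.155 in STET_S100 (adjusted p = 0.902) and -0.31 ± 0.154 in STET_S200 (adjusted p = 0.828, edgeR's quasi-likelihood test). In STET_S100 this was -34.0%, with a 95% interval from -48.3% to -15.7%. The mean of the stimulated groups differed from Control by -0.38 ± 0.123, or -22.9% with an interval from -36.6% to -6.31% (adjusted p = 0.845, same test). Before adjustment Bc1 had rank 73 of 19492 in STET_S100 (unadjusted p = 0.00424, adjusted p = 0.902) and rank 332 in the stimulated mean (unadjusted p = 0.0149, adjusted p = 0.845), both by edgeR.

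Between stimulated groups, STET_S100 was lower than STET without overlap, by a log2 difference of -0.38 ± 0.154 (adjusted p = 1, edgeR's quasi-likelihood test). STET_S200 differed from STET by -0.09 ± 0.154 and from STET_S100 by 0.29 ± 0.154 (adjusted p = 0.976 and 0.967, same test). In STET_S100 against STET 2 members did not overlap and were lower, Rian and Bc1, beside 4.87% of all genes, and in STET_S200 against STET 2 were, Neat1 and Mirg, beside 5.76%. In STET_S200 against STET_S100 no member was lower without overlap, beside 4.77% of genes. No member was higher without overlap in these comparisons, beside 4.73%, 6.22% and 4.57% of genes. The members with an unadjusted p under 0.05 (edgeR) numbered 1, Bc1, in STET_S100 against STET (3.16% of genes), 0 in STET_S200 against STET (4.56%) and 0 in STET_S200 against STET_S100 (5.20%).

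The size of the Bc1 difference in STET_S100 held under every alternative, from -0.64 to -0.54, but whether it was called depended on which libraries were fitted. With STET_S100 and Control fitted alone the difference was -0.60 ± 0.0573 (adjusted p = 0.00127, edgeR), and without STET_S200 replicate 1 it was -0.60 ± 0.0599 (adjusted p = 0.00128). Bc1 was the 1 gene called in each of these fits. In STET_S200 the size of the difference from Control depended on replicate 1. It was -0.13 ± 0.0669 without that library (adjusted p = 0.873, edgeR) and -0.20 ± 0.184 with the choroid plexus covariate (adjusted p = 0.999, edgeR). Among libraries with Fabp4 at or under 1 CPM, where replicate 1 is the only STET_S200 library, it was -0.77 ± 0.0990 (adjusted p = 0.0835, edgeR). Among those above 1 CPM, a fit chosen after seeing the data with 1 Control library, it was -0.09.

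The libraries were also divided by Fabp4. With Fabp4 at or under 1 CPM, Bc1 had 1329 to 2067 CPM in 5 stimulated and 2136 to 2404 CPM in 2 Control libraries, with a log2 difference of the stimulated mean of -0.52 (adjusted p = 0.0406, edgeR, with 1 library in STET_S200 and the spread taken from the other groups). With Fabp4 above 1 CPM, it had 1469 to 2098 CPM in 4 stimulated libraries and 2175 CPM in 1 Control library, which gives no replicate check of that difference. Its correlation with the choroid plexus markers was 0.203 and with the mitochondrially encoded genes -0.131. The pseudogene Bc1-ps1 had 0 counts in all libraries.

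**Figure D4:**
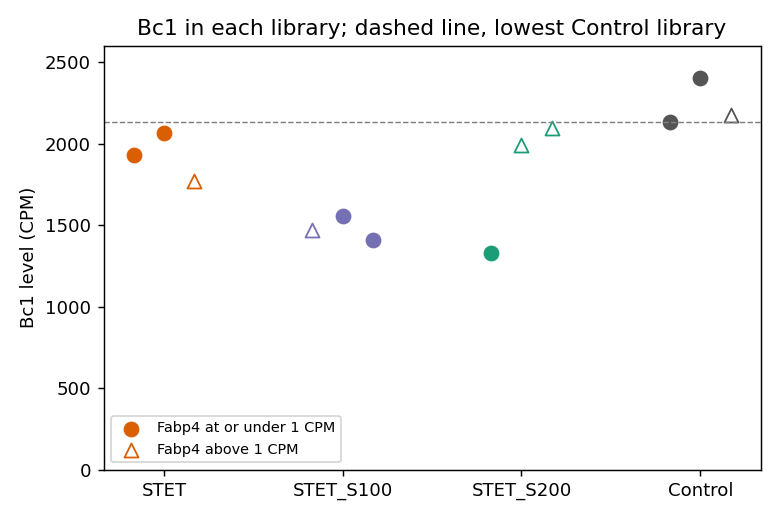
Bc1 level (CPM, vertical axis from 0) in each library of the STET, STET_S100, STET_S200 and Control groups. Filled circles are libraries with Fabp4 at or under 1 CPM and open triangles those above, and the dashed line is the lowest Control library (2136 CPM), under which all 9 stimulated libraries lie.

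Proteins linked to Bc1 in translation were tested as a list of 14, of which 7 were higher and 7 lower in the stimulated mean than in Control, with none past the test. Eif4a1, the initiation helicase whose activity Bc1 is known to restrain, averaged 299 CPM in stimulated and 283 CPM in Control libraries (log2 difference 0.08 ± 0.0331, adjusted p = 0.889, edgeR). Pura, a protein that binds Bc1 and travels in dendrites, averaged 111 CPM in stimulated and 118 CPM in Control libraries (log2 difference -0.09 ± 0.0356, adjusted p = 0.860, edgeR). The genes most like Bc1 over the 12 libraries were Rpl19, a ribosomal protein gene (r = 0.910), and Snrpa, a protein of the U1 small nuclear ribonucleoprotein (r = 0.902). Rpl19 does not stand for its class, since the sum of 80 cytosolic ribosomal protein genes had an r of -0.09 with Bc1.

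Counted over the 8 RNAs, 0 passed the adjusted threshold of 0.05 in each of the comparisons of STET, STET_S100, STET_S200 and the stimulated mean with Control, where 0% of the 19492 genes did. DESeq2 called 0 members as well. At an unadjusted p under 0.05 in edgeR, 0 of 8 members passed in STET (3.50% of all genes), 1 in STET_S100 (5.16%), 0 in STET_S200 (5.92%) and 1 in the stimulated mean (5.47%), Bc1 each time. Members were higher in 6 of 8 cases in STET, 2 in STET_S100, 1 in STET_S200 and 2 in the stimulated mean, with median log2 differences of 0.05, -0.04, -0.15 and -0.03. Of all genes tested, 49.9% were higher in STET, 50.8% in STET_S100, 50.6% in STET_S200 and 9743 of 19492 in the stimulated mean. These comparisons share the Control libraries. All 8 members were lower in STET_S100 than in STET and lower in STET_S200 than in STET, with medians of -0.09 and -0.17, beside 51.9% and 51.0% of all genes higher, and 2 of 8 were higher in STET_S200 than in STET_S100, beside 50.7%. No member passed the adjusted test in these comparisons, which share libraries with each other, and since several members vary together their directions are not independent. STET_S200 replicate 1 was also the lowest of the 12 libraries for Malat1, Meg3, Miat, Snhg11, Mirg and Bc1. Without that library the STET_S200 difference of Bc1 from STET was 0.09. That of Neat1 stayed between -0.53 and -0.30 whichever library was left out, and the values of the other members in these refits were not recorded.

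By contrast, all 15 rapid activity genes were higher than Control in STET, STET_S100 and STET_S200, with median log2 differences of 0.53, 0.48 and 0.41, although none passed the adjusted test. Arc, a synaptic plasticity gene, averaged 252 CPM in stimulated and 96.7 CPM in Control libraries (log2 difference 1.38 ± 0.291, adjusted p = 0.845, edgeR). Of 25 other long noncoding RNAs of brain 21 were tested, 8 higher and 13 lower in the stimulated mean, none past the test. C130071C03Rik averaged 48.4 CPM in stimulated and 44.0 CPM in Control libraries (log2 difference 0.14 ± 0.0459, adjusted p = 0.845, edgeR), and Peg13, an imprinted RNA read from the paternal copy, averaged 202 CPM in stimulated and 212 CPM in Control libraries.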

How the data were processed

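Directional poly(A) RNA libraries of vCA1 slices were sequenced as 150 bp paired-end reads, per the labels' protocols, with 45 M reads stated per sample. Per gene, identified by Ensembl ID, the authors deposited whole, unscaled read counts, in 1 column per library. Their upstream tools were, by the submitters' processing notes, STAR 2.7.1a, Trimmomatic 0.39, HTSeq 0.11.2, limma and R 4.0.2. Genome build, annotation and strand setting were not given in the sources used here.

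Of 55471 IDs, 55144 had a symbol. Genes were kept by filterByExpr (minimum count 10, minimum total 15), which left 19492. All 12 libraries were fitted at once, with scaling by trimmed means of M values (TMM), 1 coefficient per group and edgeR 4.0.16's robust quasi-likelihood F test in R 4.3.3, and p-values were adjusted by Benjamini-Hochberg over all genes kept, with a threshold of 0.05. The biological coefficient of variation was 8.25%. DESeq2 1.42.0 and limma 3.58.1 were alternatives, with other scalings and filters, composition terms and libraries left out. The fit was tested on simulated data. No pair of libraries of a group agreed within sampling noise (chi-square per degree of freedom 5.06 to 20.6). Counts are not independent molecules.

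The members, the lists of related genes and the comparisons were chosen with earlier results of these data known. All members were named, with up to 4 genes of each list by smallest p in the stimulated mean, the 2 genes most like each member, and overlapping genes with at least 10 reads on average. The list of genes beside Malat1 and Neat1 is not reported here. Correlations used log2 CPM with a prior count of 1.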

Additional observations from a re-analysis of the deposited data

How the results depend on the processing

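The 38 log2 differences of the members were recomputed 942 times, of which 865 kept their direction and side of the threshold, 5 passed it and 72 changed sign, 44 of these when 1 library was left out. All sign changes were in values that had not passed the test. Bc1 against Control never changed sign (-0.30 to -0.16 in STET, -0.64 to -0.54 in STET_S100, -0.77 to -0.09 in STET_S200, -0.52 to -0.32 in the stimulated mean), with adjusted p from 0.00127 to 0.995 in STET_S100 and from 0.0406 to 0.997 in the stimulated mean. The fit restricted to libraries with Fabp4 above 1 CPM (Fabp4-positive, the others Fabp4-negative), with 1 library in STET, STET_S100 and Control, was chosen after seeing the data, and there the lone samples are assumed to vary like the STET_S200 pair. In the Fabp4-negative fit STET_S200 has 1 library, assumed to vary like the other groups. The errors did not follow read number: in STET against Control the SE was 0.121 for Mirg, the member with the fewest reads, and 0.196 for Malat1.

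Members called numbered 0 in every comparison by the reported fit. Bc1 was the 1 member called in STET_S100 against Control with those groups alone and in Fabp4-positive libraries, in the stimulated mean in Fabp4-negative libraries, and in STET_S200 against STET_S100 in Fabp4-positive libraries (log2 difference 0.48, adjusted p = 0.00119, edgeR). Leaving out single libraries gave 0 to 1 members in STET_S100 against Control (Bc1, without STET_S200 replicate 1). Genes called numbered 0 in the reported fit. In the order STET, STET_S100, STET_S200 and stimulated mean against Control, then STET_S100 against STET, STET_S200 against STET and STET_S200 against STET_S100, they were 16, 42, 69, 52, 22, 34 and 98 without a filter on low counts, 1, 3, 4, 7, 1, 11 and 5 by DESeq2, and 13, 58, 24, 11, 47, 32 and 156 in Fabp4-positive libraries. A term for Fabp4 gave 2 in STET, 1 in STET_S200, 4 in the stimulated mean and 1 in each comparison with STET, the choroid plexus covariate gave 1 in STET_S200, STET_S100 and Control alone gave 1, and Fabp4-negative libraries gave 4 in the stimulated mean. Leaving out single libraries gave 0 to 1 genes in STET_S100 against Control (1 without STET_S200 replicate 1), 0 to 2 in STET_S200 and 0 to 1 in the stimulated mean (most without STET_S200 replicate 3), 0 to 1 in STET_S100 against STET (1 without Control replicate 3), and 0 to 8 in STET_S200 against STET_S100 (8 without STET_S100 replicate 3). The cause of these moves was not tested.

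With the choroid plexus covariate, Neat1 in STET was -0.0243, Mirg in STET_S100 -0.0079, Malat1 in the stimulated mean 0.0012, Bc1 in STET_S200 against STET 0.0369 and Neat1 in STET_S200 against STET_S100 0.12. With limma-voom, Miat in STET was 0.00048 and Snhg11 in the stimulated mean 0.0039. With the Fabp4 term, Mirg in the stimulated mean was -0.00064. In Fabp4-positive libraries, STET gave -0.27 for Malat1, -0.0745 for Neat1, -0.15 for Meg3, -0.15 for Snhg11, -0.0208 for Rian and -0.0698 for Mirg, STET_S100 gave -0.39 for Snhg11 and -0.28 for Mirg, the stimulated mean gave -0.0338 for Rian and -0.19 for Mirg, and Bc1 in STET_S200 against STET was 0.21. In Fabp4-negative libraries, Miat in STET was 0.0885, STET_S100 gave 0.19 for Meg3, 0.15 for Miat and 0.0304 for Rian, Rian in STET_S200 was -0.0326, the stimulated mean gave 0.0257 for Malat1, 0.0146 for Meg3 and 0.0407 for Snhg11, and Bc1 in STET_S200 against STET_S100 was -0.16.

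Leaving out 1 library at a time gave, in STET, -0.0715 to 0.30 for Malat1, -0.14 to 0.16 for Neat1, -0.0363 to 0.19 for Meg3, -0.14 to 0.11 for Miat and -0.0596 to 0.22 for Snhg11. In STET_S100 it gave -0.16 to 0.0069 for Malat1, -0.29 to 0.0134 for Neat1, -0.13 to 0.12 for Meg3, -0.24 to 0.0739 for Miat, -0.11 to 0.17 for Snhg11, -0.0503 to 0.0289 for Rian and -0.0884 to 0.15 for Mirg. In STET_S200 it gave -0.23 to 0.0608 for Snhg11, -0.0011 to 0.0939 for Rian and -0.18 to 0.053 for Mirg. In the stimulated mean it gave -0.13 to 0.0359 for Malat1, -0.12 to 0.10 for Meg3, -0.20 to 0.0487 for Miat, -0.13 to 0.15 for Snhg11, -0.0131 to 0.0661 for Rian and -0.0795 to 0.16 for Mirg. Bc1 in STET_S200 against STET ranged from -0.21 to 0.0904.

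The labels do not say whether equal replicate numbers mark the same mice, and the samples were not treated as pairs in the reported fit. The deviations of same-numbered libraries correlated at -0.325 to 0.439 over 18 pairs, 7 of them above 0.1, and 7 of 12 libraries correlated best with their own number. Pairs with unlike numbers correlated at -0.559 to 0.461. These values do not settle whether the numbers mark shared mice. With the replicate number as a block, 0 genes were called in each comparison, and Bc1 in STET_S100 was -0.60 (adjusted p = 0.852, edgeR).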
